A study of Sus scrofa with 3 samples.

Results

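AGTR1, AGT, ADM and RAMP2 encode parts of a pair of peptide systems that set vascular tone, and were chosen by gene symbol, with their signals on these arrays already known. The platform annotation gives each of the 4 genes a single probe set, among 10069 probe sets that carry the name of a single gene, covering 6765 symbols. The arrays are Affymetrix porcine expression arrays, on which a probe set is a group of short probes that together report 1 transcript. Total RNA came from minipig lung, and the minipig is a small breed of pig used in surgery research. The series holds 3 arrays, 1 for each group. The sham array is lung of a sham minipig. The operated array is the left lung of a minipig with ischemia-reperfusion, whose left pulmonary artery was occluded transiently and then reopened, with the bronchus left alone and the lung still ventilated. The non-operated array is the opposite, right lung after the same surgery. The sources used here do not give strain, age, sex, the length of the occlusion and of reperfusion, whether both lungs came from a single animal, or whether RNA was pooled. With 1 array per group, no difference could be checked against replicates and no p-value is given.

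Angiotensinogen, the product of AGT, is cut to angiotensin I, which angiotensin-converting enzyme on lung capillary endothelium turns into angiotensin II. Angiotensin II constricts vessels mainly through its type 1 receptor, encoded by AGTR1, which in lung is known from pericytes and smooth muscle. Adrenomedullin, the product of ADM, is a vasodilator peptide that also tightens the endothelial barrier and whose gene responds to hypoxia. Its receptor is the calcitonin receptor-like receptor, CALCRL, which reaches the cell surface and recognises adrenomedullin only with a partner such as RAMP2, and both are known from vascular endothelium.

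The arrays carried the markers of lung. Of 5 alveolar type 2 markers with a probe set, 0 lay at or below the floor on all 3 arrays, where the floor is the median signal of each array, 7.33 on the log2 scale for sham and 7.31 for either lung after ischemia-reperfusion. SFTPC, which encodes surfactant protein C, was at 14.44 on the sham, 14.56 on the non-operated and 14.52 on the operated array. The sham array stood apart from the others: 895 of 5113 counted genes lay at least 2-fold from sham in the non-operated lung and 889 of 5097 in the operated lung, against 12 of 4944 between both lungs. A gene was counted where it exceeded the floor on at least 1 of the arrays compared. The median log2 ratio of all counted genes against sham was -0.11 in the operated and -0.10 in the non-operated lung, and the median between both lungs was -0.02. EIF1AY, a gene of the Y chromosome, was at 0.69 in sham, below the floor, and at 10.68 and 10.89 in the non-operated and operated lung, and the part of such a difference between animals in the results below was not tested.

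All 4 genes had higher signals in either lung after ischemia-reperfusion than in sham. The share of all counted genes above sham was 42.3% in the operated and 43.4% in the non-operated lung. AGTR1 had the largest difference of the 4 genes and was about equally high in both lungs. RAMP2, AGT and ADM were highest in the non-operated lung and intermediate in the operated lung. At least 2-fold above sham were 4 of the 4 genes in the non-operated lung, where 8.96% of all counted genes were that much higher, and 2 of the 4, AGTR1 and RAMP2, in the operated lung, where 8.65% of all counted genes were. None of the 4 was at least 2-fold lower than sham, which 8.55% of counted genes were in the non-operated and 8.79% in the operated lung. The counts of the 4 genes describe genes chosen on the same signals and support nothing by themselves. The shares of all counted genes given here are also the background for the counts within lists below. Both comparisons also use the same sham array. In whole tissue, more cells of a type and more RNA per cell cannot be told apart.

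**Figure D1:**
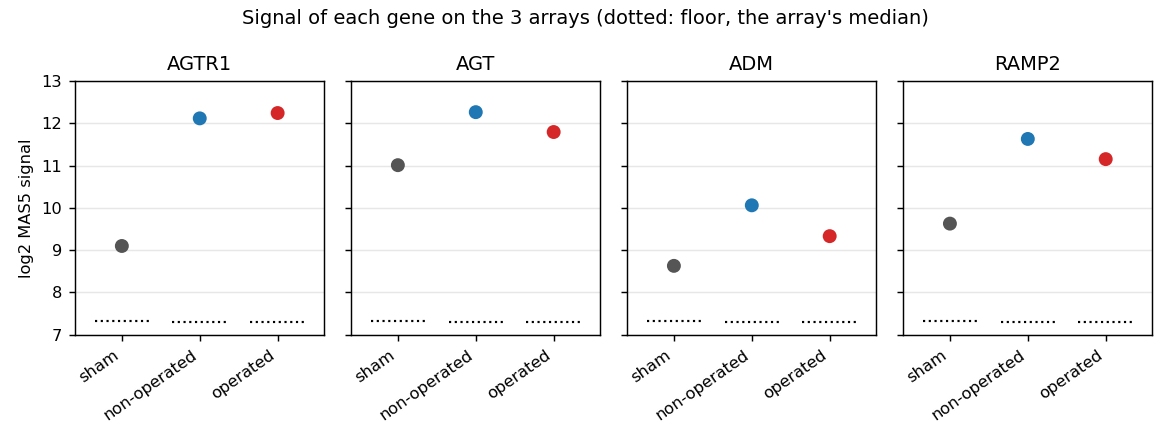
Signal of the single probe set of AGTR1, AGT, ADM and RAMP2 on the log2 scale (vertical axis) on the sham, non-operated and operated array (horizontal axis), 1 point per array, with the floor of each array dotted. The sham point is the lowest of each gene, from 8.63 for ADM to 11.01 for AGT, and the operated point lies below the non-operated point for AGT, ADM and RAMP2 and slightly above it for AGTR1.

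The receptor gene AGTR1 read a linear signal of 548 in sham, 4442 in the non-operated lung and 4847 in the operated lung. It was therefore 8.84-fold higher in the operated and 8.10-fold higher in the non-operated lung than in sham, log2 ratios of 3.14 and 3.02. It ranked 14 from the top among the 5097 genes counted in the first and the 5113 in the second comparison. The sham signal was 3.41 times the floor, so these ratios do not rest on a value at the floor. With the floor raised to the 75th percentile of each array the sham signal of AGTR1 falls below it. Both ratios then become lower bounds, which stay past 2-fold.

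The substrate gene AGT was well above the floor on every array, with linear signals of 2062 in sham, 4919 in the non-operated and 3551 in the operated lung. The non-operated lung was 2.39-fold above sham, a log2 ratio of 1.25. The operated lung was 1.72-fold above sham, a log2 ratio of 0.78, which is under the 2-fold threshold. In the non-operated comparison 5.98% of genes had a higher ratio than AGT, and in the operated comparison 11.7% did.

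ADM, which encodes the peptide, was the nearest of the 4 genes to the floor and differed most between both lungs. Its linear signal was 396 in sham, 1068 in the non-operated lung and 644 in the operated lung. The non-operated lung was 2.70-fold above sham, a log2 ratio of 1.43, with 4.42% of genes higher. The operated lung was 1.63-fold above sham, a log2 ratio of 0.70, with 13.7% of genes higher. With the floor raised to the 75th percentile of each array the sham signal of ADM falls below it, and the log2 ratios become lower bounds of 0.81 for the non-operated and 0.08 for the operated lung.

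RAMP2, the receptor partner, read 791 in sham, 3169 in the non-operated and 2277 in the operated lung. It was 4.01-fold above sham in the non-operated lung and 2.88-fold above sham in the operated lung, log2 ratios of 2.003 and 1.53. Its rank from the top was 82 among genes of the first comparison and 181 in the second. Both lungs thus exceeded sham by at least 2-fold, with the operated lung lower of the pair.

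**Figure D2:**
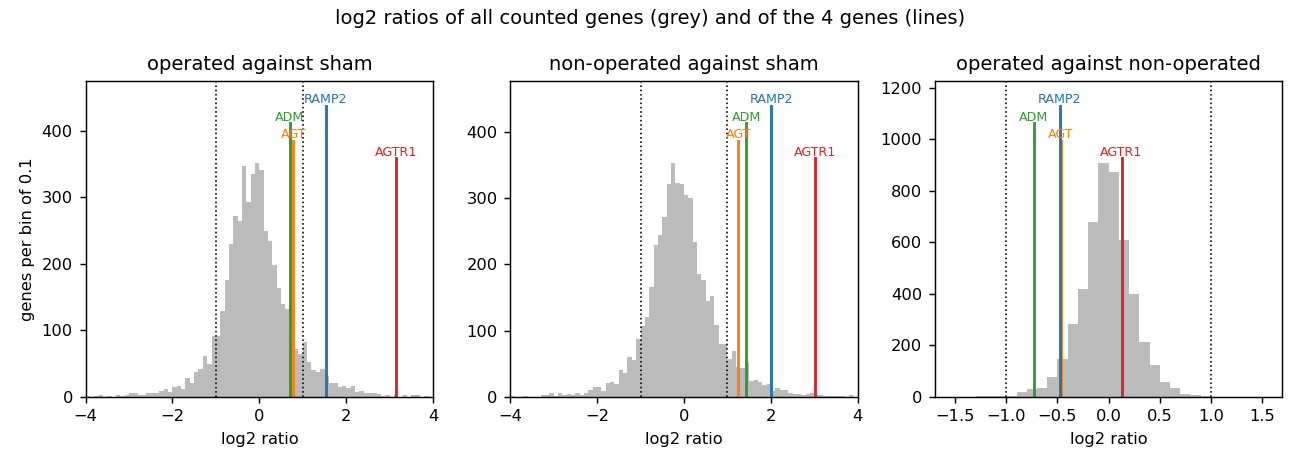
Number of counted genes in bins of 0.1 of the log2 ratio (grey bars) for each comparison, with the ratios of AGTR1, AGT, ADM and RAMP2 as coloured lines, whose height has no meaning, and dotted lines at a 2-fold difference. Against sham all 4 lines lie on the higher side, with AGTR1 at 3.14 in the operated and 3.02 in the non-operated lung. In the operated lung AGT and ADM lie below the 95th percentile of all counted genes, 1.33. In the non-operated lung AGT lies below that percentile, 1.37. Between both lungs AGTR1 lies at 0.13 and the other lines lie at the left edge of the bulk, down to -0.73 for ADM.

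The comparison of the occluded side with the other side does not use the sham array. AGTR1 was at a log2 ratio of 0.13 for operated against non-operated lung, within the middle of all genes. ADM was 1.66-fold lower in the operated lung, a log2 ratio of -0.73, and only 1.05% of 4944 counted genes had a lower ratio. RAMP2 was 1.39-fold lower, a log2 ratio of -0.48, with 4.0% of genes below it, and AGT was 1.39-fold lower, a log2 ratio of -0.47, with 4.21% below it. None of the 4 genes reached a 2-fold difference, which 0.0607% of counted genes exceeded upward and 0.182% downward, together 0.243%. The 5th percentile of the ratios of all counted genes was -0.44 and the 95th was 0.40, so AGT and RAMP2 lay just below and ADM well below that range.

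The only internal measure of error is the spread between probe sets that read the same gene. Over 765 genes with several probe sets above the floor on all 3 arrays, the log2 ratio to sham had a pooled SD between probe sets of 0.39 in the operated and 0.40 in the non-operated lung, and the ratio between both lungs had a pooled SD of 0.22. The 4 genes have a single probe set each and give no such spread of their own. Their ratios against sham exceeded these SDs, as did the ratios of ADM, RAMP2 and AGT between both lungs, while that of AGTR1 between both lungs, 0.13, was smaller than the SD. This spread does not cover repeat arrays, RNA preparations or animals.

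Other genes of the angiotensin system lay on either side of sham. Of the 22 listed genes 13 have a named probe set, and AGTR2 is among those not measured here. Against sham, 4 of 12 counted genes were at least 2-fold higher in the non-operated lung and 0 lower, namely AGTR1, AGT, AGTRAP and CTSD. In the operated lung 1 of 11 was higher, AGTR1, and 1 lower, PREP. Leaving out AGTR1 and AGT, the median log2 ratio was -0.05 in either lung, near the median of all genes.

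At the enzyme steps, ACE, the converting enzyme, was at a linear signal of 108 in sham, 217 in the non-operated lung and 142 in the operated lung, above the floor only in the non-operated lung. With the floor at the 25th percentile it was 2.005-fold above sham in the non-operated lung, which adds it to the genes past 2-fold there, and 1.31-fold in the operated lung. ATP6AP2, a proton pump accessory protein gene, was at log2 ratios of 0.81 in the operated and 0.69 in the non-operated lung. CTSD, an aspartic protease of lysosomes, was 1.99-fold higher in the operated lung, which passes 2-fold when arrays are centred on their medians, and 2.28-fold higher in the non-operated lung. Among peptidases that cut angiotensins, PREP, the prolyl endopeptidase gene, was 2.21-fold lower in the operated lung, which a floor at the 75th percentile brings under 2-fold, and 1.59-fold lower in the non-operated lung. ENPEP, aminopeptidase A, was at -0.64 and -0.48 in the operated and non-operated lung, and NLN, neurolysin, was at -0.73 and -0.57, or -0.33 in either lung by the mean of its 5 probe sets. THOP1, thimet oligopeptidase, was at -0.40 in the non-operated lung and at or below the floor in the operated lung. PRCP, the prolylcarboxypeptidase gene, was at -0.05 and -0.11, near the median of all genes. ANPEP, aminopeptidase N, read 88.4 in sham, below the floor, and 163 in either lung, just above it, and was 1.85-fold above sham in either lung with the floor at the 25th percentile. KLK1, a kallikrein gene, did not exceed the floor on any array.

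AGTRAP encodes a protein that binds the type 1 receptor and promotes its internalisation. Its linear signal was 152 in sham, just under the floor, 401 in the non-operated lung and 258 in the operated lung. It was at least 2.49-fold above sham in the non-operated and at least 1.61-fold in the operated lung, and 1.55-fold lower in the operated than in the non-operated lung. This order of the 3 arrays is that of ADM, AGT and RAMP2, not that of AGTR1.

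In the adrenomedullin and calcitonin peptide system, RAMP2 and ADM were the counted genes at least 2-fold above sham, RAMP2 in both lungs and ADM in the non-operated lung, and no other gene of the list was at this floor. Of 18 listed genes 10 have a named probe set, 5 were counted for the non-operated and 6 for the operated lung, and 0 were at least 2-fold lower. Leaving out ADM and RAMP2, the medians over 3 and 4 genes were -0.20 and -0.05. CALCRL, the receptor that RAMP2 accompanies, read 26.8 in sham and 145 in the non-operated lung, both below the floor, and 195 in the operated lung, so that its ratio in the operated lung is a lower bound of 0.28. These bounds depend on the floor: at the 25th percentile of each array CALCRL was at least 4.91-fold above sham in the operated and at least 3.65-fold in the non-operated lung. RAMP3, the alternative partner for adrenomedullin, was below the floor on all arrays, with linear signals of 19.6, 83.0 and 116 in sham, non-operated and operated lung, and at the lower floor it was at least 2.94-fold above sham in the operated and at least 2.09-fold in the non-operated lung. Unlike RAMP2, both read higher in the operated than in the non-operated lung. RAMP1, the partner that makes CALCRL a receptor for calcitonin gene-related peptide, was at -0.37 in the operated and -0.20 in the non-operated lung. PAM, the enzyme that amidates adrenomedullin to its active form, was at 0.61 and 0.52. CALCB, a calcitonin gene-related peptide gene, exceeded the floor only in sham, at least 1.76-fold lower in either lung, and at the lower floor 4.06-fold lower in the operated and at least 6.94-fold lower in the non-operated lung. ADM5, CALCR and PCSK1 did not exceed the floor on any array.

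**Figure D3:**
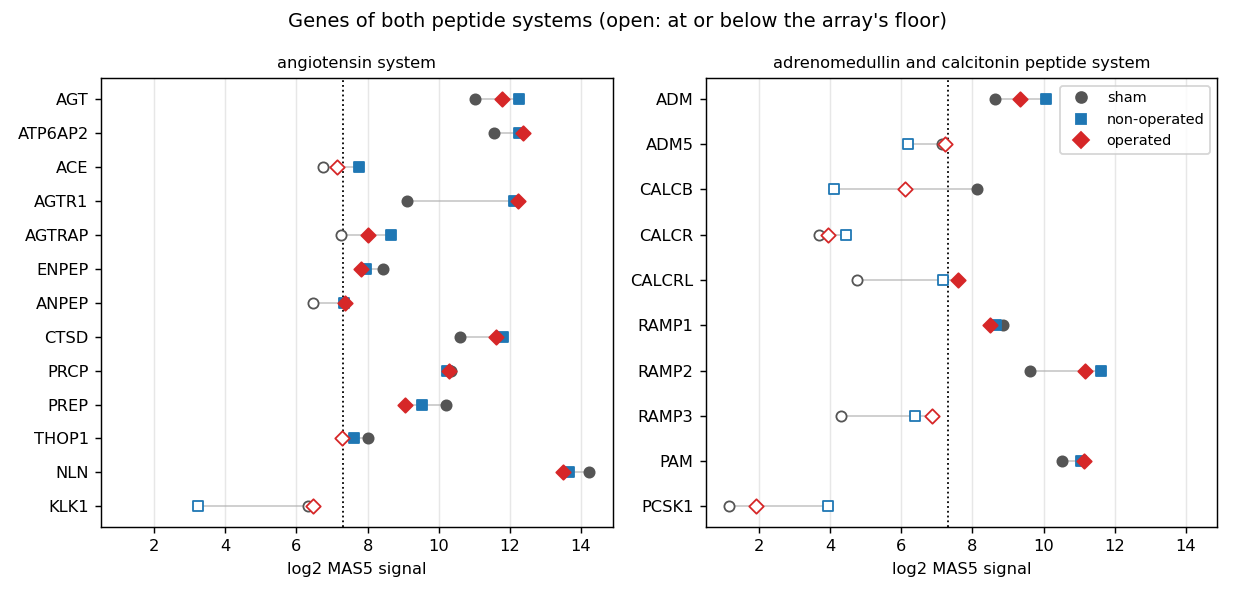
Log2 signal (horizontal axis) of each gene of the angiotensin list and of the adrenomedullin and calcitonin list on the sham (circle), non-operated (square) and operated (diamond) array, open where at or below the floor of that array (dotted line, mean of the 3 floors). Positions compare arrays within a gene, not genes with each other. AGTR1 and RAMP2 have the sham circle farthest left of both other symbols among genes above the floor on all 3 arrays, and CALCRL and RAMP3 lie mostly or wholly left of the floor.

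Of the receptor coupling and desensitisation list, 14 genes were counted against sham, 0 at least 2-fold higher in either lung, and 3 lower in the operated and 4 lower in the non-operated lung. The median log2 ratio was -0.33 and -0.25 respectively. The lower genes included RGS5 and RGS4, which encode regulators that shorten signals of receptors such as the type 1 angiotensin receptor. RGS5 read 10.14 in sham and lay below the floor in both lungs, at least 7.11-fold lower in either. RGS4 was at -2.24 in the operated and -1.91 in the non-operated lung. PDE4B, a cyclic AMP phosphodiesterase gene, was at -1.04 and -1.25, and PRKCB, a protein kinase C gene, at -0.94 and -1.02. By the mean of its 3 probe sets PRKCB was at -0.43 in either lung and no longer among the lower genes. GRK5, a receptor kinase that starts desensitisation, was at 0.69 and 0.99, the latter past 2-fold when arrays are centred on their medians, and RGS2 at -0.10 and 0.37.

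Genes of other vasoactive systems were mostly below the floor. Of 12 with a probe set, 9 did not exceed it on any array, including the endothelin receptor genes EDNRA and EDNRB and the natriuretic peptide genes NPPA and NPPB. EDN1, which encodes endothelin-1, was below the floor in sham and had lower bounds of 0.74 in the operated and 0.55 in the non-operated lung. GUCY1B3, a subunit of the nitric oxide receptor guanylate cyclase, was at 1.34 and 1.27 by its brightest probe set, and at 0.51 and 0.65 by the mean of its 3 probe sets. In the aldosterone list, SGK1, a kinase gene induced by mineralocorticoids and glucocorticoids, was at 1.46 and 1.40, and 0 of the counted genes was at least 2-fold lower.

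RAMP2 is known as an endothelial gene, and the endothelial markers had higher signals in the same lungs. Of 14 counted endothelial markers, 13 were at least 2-fold above sham in the operated lung, with a median log2 ratio of 1.51, and 12 in the non-operated lung, with a median of 1.52. The summed linear signal of the 19 markers with a probe set was 19959 in sham, 61958 in the non-operated and 54648 in the operated lung. Sums of this kind, here and below, weigh probe sets by their brightness and include values below the floor. A few bright probe sets can set them, so they do not measure cell content. TMEM100, a lung endothelial gene, was at 2.19 in the operated and 3.10 in the non-operated lung, and THBD, the thrombomodulin gene, at 1.98 and 2.57. The defining markers KDR, FLT1, TIE1 and ENG did not exceed the floor on any array, nor did EDNRB. RAMP2, at 1.53 and 2.003, lay near the median of the markers in the operated lung and above it in the non-operated lung, and the part of endothelial content in its signal was not tested. Between both lungs the endothelial median was -0.05, with RAMP2 at -0.48, THBD at -0.59 and TMEM100 at -0.91.

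AGTR1 is known from pericytes and smooth muscle, and 10 of 11 counted markers of these cells were above sham in either lung. The share of all counted genes above sham was 42.3% in the operated and 43.4% in the non-operated lung. Of 11 counted markers, 6 were at least 2-fold higher and 1, RGS5, was at least 2-fold lower in either lung, with medians of 1.63 in the operated and 1.41 in the non-operated lung. Their summed linear signal was 13648 in sham, 28346 in the non-operated and 25647 in the operated lung, of which ACTA2 alone read 7929, 15119 and 12347. Of the 11 markers 0 lay at or below the floor on all arrays. ACTG2, a smooth muscle actin, was at 2.54 in the operated and 2.31 in the non-operated lung, MCAM, an adhesion molecule of vessel walls, at 1.74 and 2.32, and DES, the desmin gene, at 1.63 and 1.83, each by its brightest probe set. By the mean of its 2 probe sets ACTG2 was at 1.46 and 1.31, and DES was at 0.56 and 0.55 and no longer past 2-fold. AGTR1, at 3.14 and 3.02, had a higher ratio than each of the 11 markers, whose highest were 2.54 and 2.32. Smooth muscle markers under 2-fold included ACTA2, at 0.64 in the operated and 0.93 in the non-operated lung, and MYL9, at 0.51 and 0.72. The pericyte markers did not move together. HIGD1B and PDGFRB were at 1.72 and 0.37 in the operated lung and at 1.58 and 0.28 in the non-operated lung. KCNJ8 had lower bounds of 0.15 and 0.52 by its brightest probe set, and RGS5 was at -2.83 or lower in either lung. The part of mural cell content in the AGTR1 signal was not tested.

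AGT is known as a liver gene that glucocorticoids induce. Of 9 liver markers with a probe set 7, including ALB, TTR and FGB, did not exceed the floor on any array. TF, the transferrin gene, was at 2.35 and 2.45 in the operated and non-operated lung by its brighter probe set and at 1.36 and 1.44 by the mean of both, and APOA1 at 0.41 and 0.50. The summed linear signal of the liver markers was 1394 in sham, 2767 in the non-operated and 2561 in the operated lung. Within it APOA1 read 938, 1328 and 1247, and TF 229, 1254 and 1171. Glucocorticoid-responsive genes were above sham in 15 of 15 counted genes in the operated and 14 of 14 in the non-operated lung. Of all counted genes 42.3% and 43.4% were above sham. Of the glucocorticoid-responsive genes 11 and 13 were at least 2-fold above sham, with medians of 1.51 and 1.52. PDK4, which encodes pyruvate dehydrogenase kinase, had lower bounds of 5.18 and 5.43 by its brighter probe set, with 4.43 and 4.70 by the mean of both, and the transcription factor gene KLF9 was at 2.47 and 2.68. Between both lungs their median was -0.13, with AGT at -0.47. Of the adipocyte markers, another source of AGT, ADIPOQ and LEP did not exceed the floor, while LPL was at 2.45 and 2.11 by its brighter probe set and at 1.72 and 1.39 by the mean of both. PPARG had lower bounds of 1.63 and 1.65. FABP4, above the floor on all 3 arrays, was at -0.07 in the operated and -0.28 in the non-operated lung, so the adipocyte markers did not move together. The summed linear signal of the adipocyte markers was 648 in sham, 1845 in the non-operated and 2141 in the operated lung. Within it LPL read 240, 1038 and 1313, and FABP4 261, 216 and 249. The parts of liver cell content, glucocorticoid response and adipocyte content in the AGT signal were not tested.

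ADM is known as a target of hypoxia-inducible factors. The hypoxia list holds other targets and also genes of the factors themselves. Of its 16 counted genes 8 were above sham and 8 below it in either lung. Of all counted genes 42.3% were above sham in the operated and 43.4% in the non-operated lung. Among these hypoxia genes, 3 were at least 2-fold above sham in the operated lung and 2 in the non-operated lung, with 0 lower in either and medians of -0.01 and 0.17. EPAS1, itself an oxygen-regulated transcription factor of endothelium, was at 1.71 and 1.61, MXI1 at 1.27 and 1.12, and INSIG2 at 1.69 in the operated and 0.99 in the non-operated lung, the latter past 2-fold when arrays are centred on their medians. VEGFA, the endothelial growth factor gene, was at 0.64 and 0.51 by its brightest probe set and at 0.84 and 1.17 by the mean of its 4 probe sets, which passes 2-fold in the non-operated lung. LDHA, the lactate dehydrogenase gene, was at -0.70 and -0.65. Between both lungs the hypoxia median was 0.08, and ADM was at -0.73. The part of hypoxia in the ADM signal was not tested. The summed linear signal of the hypoxia genes was 39711 in sham, 33235 in the non-operated and 34210 in the operated lung. LDHA alone read 12446, 7945 and 7642 of it, so the fall of the sum does not describe the list as a whole.

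**Figure D4:**
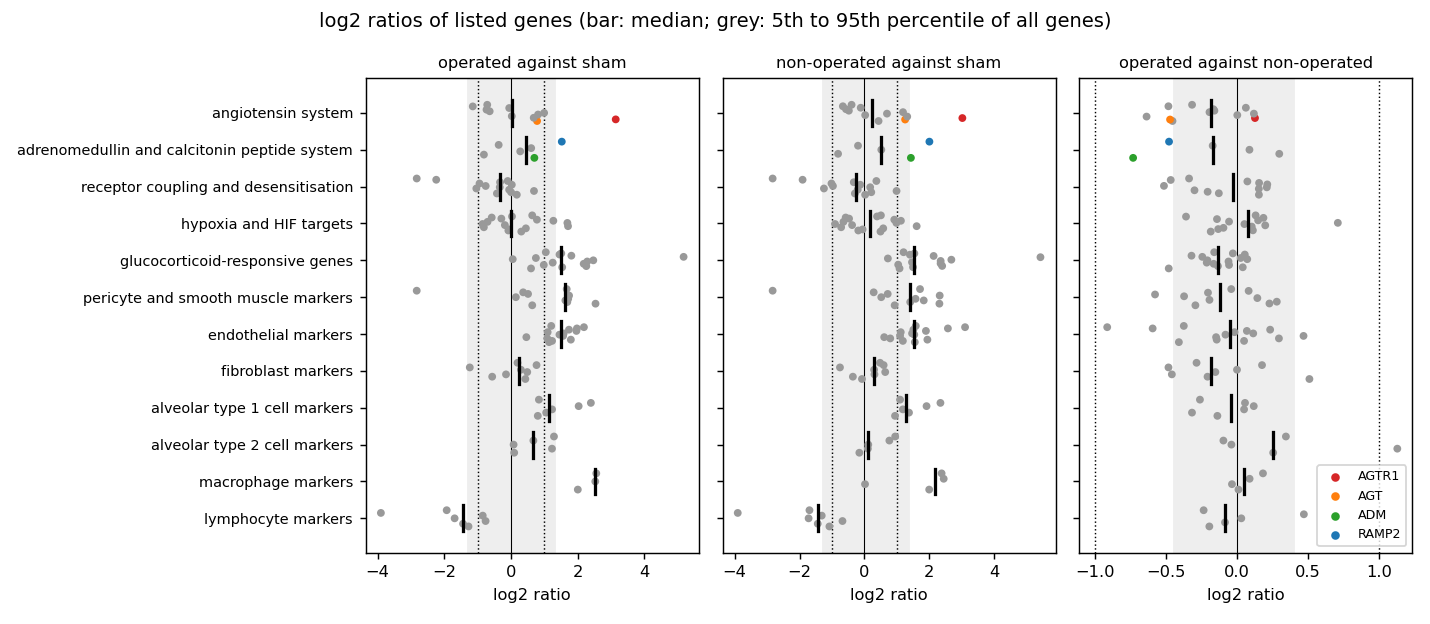
Log2 ratios (horizontal axis) of the counted genes of 12 lists (rows) in each comparison, 1 point per gene, with the 4 genes coloured, the list median as a black bar, the 5th to 95th percentile of all counted genes shaded and dotted lines at a 2-fold difference. AGTR1 lies to the right of every pericyte and smooth muscle marker against sham, RAMP2 lies within the range of the endothelial markers, and ADM is the lowest of its list between both lungs at -0.73.

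Markers of other cells in the tissue also differed from sham. Lymphocyte markers were at least 2-fold lower in 5 of 7 genes in the operated and 6 of 7 in the non-operated lung, with a median of -1.44 in either. Their summed linear signal was 6811 in sham, 1725 in the non-operated and 1870 in the operated lung. Macrophage markers were at least 2-fold higher in 3 of 3 counted genes in the operated and 3 of 4 in the non-operated lung. The remaining gene, MARCO, barely exceeded the floor in the non-operated lung and lay below it in sham. Its lower bound there was 0.018, or -0.007 by the mean of its probe sets. CD14 did not exceed the floor on any array. Alveolar type 1 markers had medians of 1.15 and 1.28, and fibroblast markers 0.25 and 0.30, with LUM at -1.24 in the operated lung. Among alveolar type 2 markers SFTPB, a surfactant protein gene, was at 1.23 in the operated and 0.11 in the non-operated lung. The part of this makeup in the signals of the 4 genes was not tested.

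The genes most like each of the 4 were found by the distance between their log2 ratios against sham, 1 for each lung, over 5160 genes above the floor on at least 1 array, which compares only these 3 arrays. AGTR1 had few near neighbours, with 4 genes within a distance of 0.25 on the log2 scale: VSIG2, AKR1CL1, SHROOM2, an actin-binding protein of epithelium and endothelium, and TRNP1, which was below the floor in sham. The fifth in order was PLA2G1B, a secreted phospholipase, at 0.39. On the log2 scale VSIG2, AKR1CL1, SHROOM2 and PLA2G1B read 7.62, 7.72, 7.65 and 7.63 in sham. These values are close to the sham floor of 7.33, while AGTR1 read 9.10. RAMP2 had 14 genes within that distance, the nearest being HYAL2, a hyaluronidase, EFNB2, an ephrin of arterial endothelium, NOSTRIN, which controls endothelial nitric oxide synthase, CD151 and CDC42EP3. EFNB2 and NOSTRIN were below the floor in sham, so that their ratios are lower bounds. HYAL2 was at 1.49 in the operated and 2.01 in the non-operated lung.

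ADM had 17 genes within 0.25, led by CRISPLD2 at 0.75 in the operated and 1.48 in the non-operated lung, then NUDT14, MAP7D1, AGTRAP and the eosinophil chemokine gene CCL24. AGT had 58, led by SPINK4 at 0.80 and 1.22, then FLNA, which encodes the actin cross-linker filamin A, SLC9A3R2, JMJD6 and the matrix proteoglycan gene PRELP. AGT thus had the most genes within this distance of the 4 and AGTR1 the fewest. These numbers depend on how far the ratios of each gene lie from those of most genes, so they do not measure how shared a pattern is.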

How the data were processed

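The deposited table holds log2 values, 1 per probe set and array. Per the submitters' processing notes the authors used MAS5, an Affymetrix method that scales every array by itself and summarises each probe set as 1 signal. Its version and scaling target were not stated there. Of 23999 probe sets, 64 reporter controls were left out. Names came from the platform annotation: 10069 probe sets have 1 gene, 198 several and 13668 are unnamed here. Gene identifiers of the 4 genes matched RefSeq names of Sscrofa11.1. Where a gene had several probe sets, that with the highest mean stood for it.

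Values at or below the floor, the array's median, were set to it, so ratios with 1 such value are lower bounds. Calls are 2-fold differences. No test was possible, and the number of arrays limits precision. The members and 16 gene lists were chosen with earlier results of these data known. Named were all genes measured on both peptide lists, up to 4 genes of at least 2-fold from each other list, and the 5 nearest in pattern. Others (HIGD1B, PDGFRB, VEGFA, LDHA, GRK5, RGS2, EDN1, SFTPC, EIF1AY, APOA1, and genes below the floor) were named after their values were seen. So were ACTA2, MYL9, KCNJ8, FABP4 and MARCO. Ratios were checked on simulated arrays (Python 3.11.15, pandas 2.3.3).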

Additional observations from a re-analysis of the deposited data

How the results depend on the processing

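Each ratio of the 4 genes was recomputed under 9 alternatives: 3 scalings between arrays, 5 treatments of low values and the mean of all probe sets. All 12 ratios kept their direction under the 9 alternatives, and all but ADM in the non-operated lung kept their side of the 2-fold threshold. Much of this was fixed in advance. Each gene has a single probe set, above the floor on all arrays. No floor, floors at the 25th percentile or from the reporter probe sets, and the mean of all probe sets therefore return the same ratios. Adding 100 to every linear signal can shrink a ratio but not reverse it. With the floor at the 75th percentile, ADM had lower bounds of 0.81 in the non-operated and 0.081 in the operated lung, because its sham signal lies below that floor. The sham signal of AGTR1 also lies below that floor, so its ratios against sham are lower bounds there too. Under all 9 alternatives the log2 ratio of AGTR1 was at least 2.81 in the non-operated and 2.93 in the operated lung. No other probe set of the 4 genes was available for a check. The background counts depended on the floor. Genes at least 2-fold from sham numbered 1621 in the operated and 1662 in the non-operated lung without a floor, and 427 and 439 with a floor at the 75th percentile. Between both lungs there were 550 without a floor, 110 with a floor at the 25th percentile, 97 with a floor from the reporter probe sets and 5 with a floor at the 75th percentile. Of the values of other listed genes, 200 moved by more than the pooled SD between probe sets and 2866 did not, and none at least 2-fold from its comparison array changed sign. Of the counts within lists, 84 changed by over 1.5 times and 780 did not. In the adrenomedullin and calcitonin list, a floor at the 25th percentile added CALCRL and RAMP3 to the genes at least 2-fold above sham, 3 in place of 1 for the operated lung and 4 in place of 2 for the other. No paired analysis was possible because each group holds 1 array.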

Other observations

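The 4 genes were also set beside their neighbours on the chromosome, in the gene order of the RefSeq assembly. Of 16 neighbouring protein-coding genes, the nearest pair on either side of each gene, 6 have a named probe set and 4 were counted. SWAP70, near ADM, was at -1.36 in either lung against sham, opposite to ADM. C14H1orf198 and COG2, beside AGT, and VPS25, beside RAMP2, were within 2-fold of sham in both lungs. CPB1, beside AGTR1, and WNK4, near RAMP2, did not exceed the floor on any array.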
